A study of Saccharomyces cerevisiae with 3 samples.

Results

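The 10 genes described here encode enzymes that take sulfate to sulfide, methionine, cysteine and S-adenosylmethionine (SAM) in Saccharomyces cerevisiae. They are MET3, MET14, MET16, MET10, MET5, MET6, CYS3, CYS4, SAM1 and SAM2, chosen by name, and all 10 are among the 5293 open reading frames (ORFs) listed. The cells were BY4741, a laboratory haploid strain of mating type a, harvested at mid-log phase from YPD, a rich medium with glucose that also supplies methionine and cysteine. Cytoplasmic RNA, broken at random by alkaline hydrolysis, was sequenced in 3 libraries: unselected total RNA, RNA selected for poly(A) tails with oligo(dT) on Dynabeads, and RNA depleted of ribosomal RNA with RiboMinus probes. Strain, medium and growth phase are the same for all 3 libraries, and each preparation has 1 library. No difference therefore has a replicate check, no p-value is given, and intervals cover counting error only.

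In yeast, sulfate is activated with ATP, reduced to sulfite and then to sulfide, and sulfide is joined to a homoserine derivative to give homocysteine. Homocysteine is methylated to methionine or passed through cystathionine to cysteine, and methionine is made into SAM, the main methyl donor. Transcription of most of these genes depends on the activator Met4, which is brought to DNA by Cbf1 or by the zinc-finger proteins Met31 and Met32, and which the ubiquitin ligase subunit Met30 restrains when sulfur amino acids are plentiful. BY4741 lacks MET17, the enzyme that joins sulfide to the homoserine derivative, so the strain needs an organic sulfur source such as methionine. MET17 was at 0.84 RPKM in the unselected, 2.21 RPKM in the poly(A)-selected and 1.71 RPKM in the RiboMinus library, from 5, 19 and 3 reads. Its annotated ORF overlaps YLR302C. Where these few reads come from was not tested.

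The libraries held 4452594, 6467536 and 1317754 reads in listed ORFs, in the order unselected, poly(A)-selected and RiboMinus. The unit is reads per kilobase of coding sequence per 1000000 such reads (RPKM). The median listed ORF was at 47.6, 52.8 and 51.7 RPKM. As a check of the strain, the a-specific genes MFA1, MFA2, STE2 and BAR1 lay between 147 and 2325 RPKM over the 3 libraries, and the alpha-specific genes STE3, MF(ALPHA)1 and MF(ALPHA)2 between 0 and 15.3 RPKM.

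The DNA just upstream of the ORFs was searched for sequences that regulators of this pathway are known to bind. Of the 10 members, 8 have 1 of 2 such motifs, against 4.04% of all listed ORFs. In the 300 bases before the start codon, 4 of the 10 members have CACGTG, the sequence bound by Cbf1, against 3.61% of all listed ORFs. Another 4 have AAACTGTGG, the sequence bound by Met31 and Met32, against 0.510% of all listed ORFs. Both strands were searched, no member has both motifs, and CACGTG reads the same on both strands. MET5 and MET6 have neither motif in this window. The sequences below show every match with 10 bases on either side, 5′ to 3′ on the strand of the gene, with the motif in capitals, from the RefSeq R64 genome. A match is a description of these letters and not evidence of binding.
MET14: ccactaatttCACGTGatcaatatat
MET16: atcatcatttCACGTGgctagtaaaa
MET10, first match: tataccacacCACGTGagcttataga
MET10, second match: cttatagaagCACGTGaccacaattc
CYS3: attagccattCACGTGatctcagcca
MET3: tataacaaagCCACAGTTTtacaacttag
CYS4: ccatcttcctCCACAGTTTtgcaccgaaa
SAM1: tttcacaggaAAACTGTGGtggcgccctt
SAM2: ttgagcttgaAAACTGTGGcgtttttcca

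These stretches lie on the minus strand at chrXI:439598-439623 for MET14 and chrXVI:877795-877820 for MET16, and on the plus strand at chrVI:213053-213078 and chrVI:213071-213096 for MET10 and chrI:130573-130598 for CYS3. Those with the Met31 and Met32 sequence lie on the plus strand at chrX:455976-456004 for MET3, chrVII:798326-798354 for CYS4 and chrXII:514975-515003 for SAM1, and on the minus strand at chrIV:1454746-1454774 for SAM2. In MET3 and CYS4 the sequence stands on the opposite strand, so it appears as CCACAGTTT. The first base of the motif is 178 bases before the start codon in MET16 and 300 bases before it in SAM2, and the other matches fall between these distances. The shorter core CTGTGG, which AAACTGTGG contains, is also present before MET10, which makes 5 of 10 members against 6.93% of listed ORFs. TGACTC, the sequence bound by Gcn4, the general activator of amino acid synthesis, is present before MET16 and MET5, against 8.20% of listed ORFs. Among the other sulfur genes that the files list, 13 of 39 have CACGTG or AAACTGTGG, against 8 of the 10 members and 4.04% of all listed ORFs.

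In the unselected library the members fell into 2 ranges of mRNA level that follow the pathway. The 5 genes from sulfate to sulfide lay between 16.4 and 73.8 RPKM in the unselected library, on both sides of the median ORF. MET16 and MET3 were above only 14.8% and 22.9% of listed ORFs, and the highest, MET14, was above 65.3%. The 5 genes after sulfide lay between 327 and 777 RPKM there, above 92.4% or more of listed ORFs. In every library each gene of the second range was above each gene of the first. The lowest of the second was 4.44-fold above the highest of the first in the unselected library, 1.72-fold in the poly(A)-selected library and 1.28-fold in the RiboMinus library. In the RiboMinus library that gap, between SAM2 and MET14, rests on few reads, and the exact binomial 95% interval of the ratio was 1.02 to 1.61. In the treated libraries wider steps lay inside the ranges. After poly(A) selection MET14 was 4.15 times MET3, the next gene below it. In the RiboMinus library MET6 was 2.20 times CYS3, MET10 was 1.93 times MET3 and MET14 was 1.74 times MET5.

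**Figure D1:**
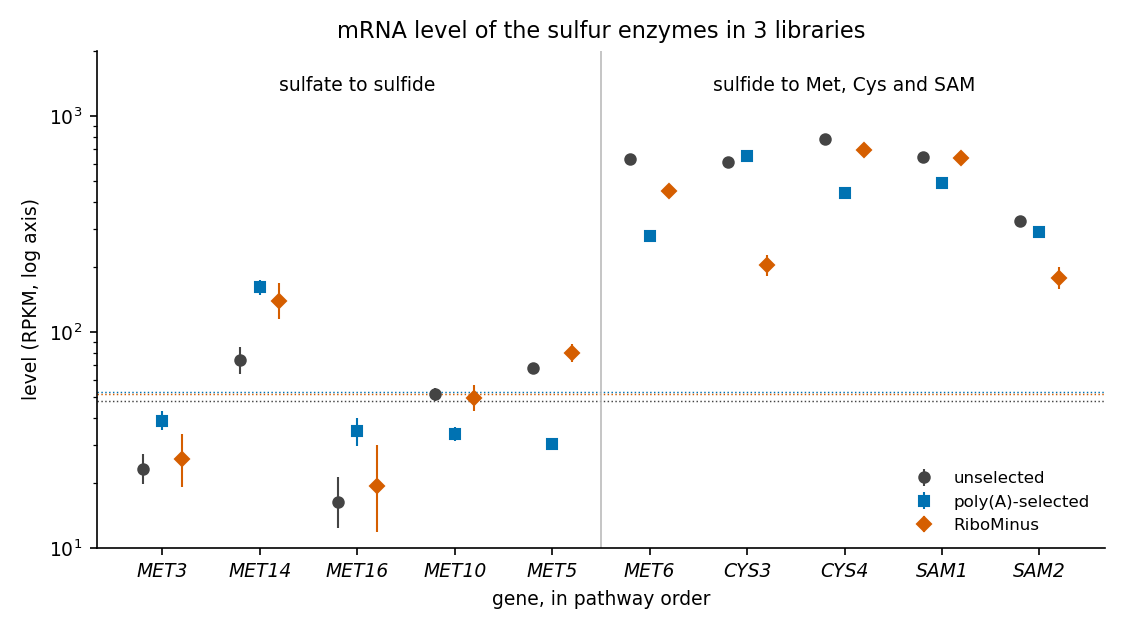
Level of each gene in RPKM, on a log axis, in the unselected (circles), poly(A)-selected (squares) and RiboMinus (diamonds) libraries. Bars are 95% Poisson counting intervals and dotted lines mark the median listed ORF of each library. The genes after sulfide stand above those before it, and MET14 is the highest gene before sulfide in each library. In the unselected library MET14 was 1.09 times MET5 (interval 0.934 to 1.27), within counting error.

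All 10 members together took 0.501% of the ORF reads of the unselected library (exact binomial 95% interval 0.494% to 0.508%), 0.339% of the poly(A)-selected library (0.334% to 0.343%) and 0.390% of the RiboMinus library (0.379% to 0.401%). The genes from sulfate to sulfide made up 0.0545%, 0.0420% and 0.0638% of the reads. Those after sulfide made up 0.447%, 0.297% and 0.326%. The share of the second set was therefore lower in both treated libraries, while that of the first was lower in one and higher in the other.

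MET3 (YJR010W, chrX:456239-457774, plus strand) encodes ATP sulfurylase, which makes adenosine phosphosulfate from sulfate and ATP. It was at 23.3 RPKM in the unselected, 38.8 RPKM in the poly(A)-selected and 25.7 RPKM in the RiboMinus library, from 159, 385 and 52 reads. MET14 (YKL001C, chrXI:438777-439385, minus strand) encodes the kinase that adds a second phosphate to that product, and it was at 73.8, 161 and 139 RPKM in the same order. The level of MET14 was thus higher than in the unselected library after either treatment, and it was above MET3 in every library.

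MET16 (YPR167C, chrXVI:876847-877632, minus strand) encodes the reductase that uses thioredoxin to release sulfite. It was the lowest member of the unselected library, at 16.4 RPKM from 57 reads, and the lowest of the RiboMinus library, at 19.4 RPKM from 20 reads. In the RiboMinus library MET3 was 1.33 times MET16 (interval 0.779 to 2.35), so that last place did not go beyond counting error. After poly(A) selection MET16 was at 34.6 RPKM from 175 reads. There MET3, next above it in the order of levels, was 1.12 times MET16 (interval 0.937 to 1.35), and MET16 was 1.02 times MET10, next below it (interval 0.862 to 1.21). Both intervals include 1.

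Sulfite reductase, which turns sulfite into sulfide, is built from the alpha subunit Met10 and the beta subunit Met5. MET10 (YFR030W, chrVI:213312-216419, plus strand) was at 51.3 RPKM in the unselected, 33.8 RPKM in the poly(A)-selected and 49.6 RPKM in the RiboMinus library. MET5 (YJR137C, chrX:678957-683285, minus strand) was at 67.7, 30.3 and 79.8 RPKM. MET5 was thus above MET10 in the unselected and RiboMinus libraries and below it after poly(A) selection, where it was the lowest of the 10 genes.

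MET6 (YER091C, chrV:339864-342167, minus strand) encodes methionine synthase, which methylates homocysteine without cobalamin. It was at 631 RPKM in the unselected, 277 RPKM in the poly(A)-selected and 447 RPKM in the RiboMinus library, so the unselected library had the highest value. CYS4 (YGR155W, chrVII:798543-800066, plus strand), cystathionine beta-synthase, joins homocysteine to serine. It was the highest member of the unselected library at 777 RPKM and of the RiboMinus library at 696 RPKM, and was at 438 RPKM after poly(A) selection.

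CYS3 (YAL012W, chrI:130799-131983, plus strand), cystathionine gamma-lyase, releases cysteine from cystathionine. It was at 608 RPKM in the unselected, 649 RPKM in the poly(A)-selected and 203.5 RPKM in the RiboMinus library, from 3202, 4963 and 317 reads. CYS3 was the highest member after poly(A) selection and stood below CYS4, SAM1 and MET6 in the RiboMinus library. Its highest and lowest libraries differed 3.19-fold, the widest range of the 10 genes, while SAM1 had the narrowest at 1.31-fold.

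SAM1 (YLR180W, chrXII:515262-516410, plus strand) and SAM2 (YDR502C, chrIV:1453310-1454464, minus strand) encode the SAM synthetases. SAM1 was at 641 RPKM in the unselected, 488 RPKM in the poly(A)-selected and 636 RPKM in the RiboMinus library. SAM2 was at 327, 291 and 178 RPKM. SAM1 was the higher paralog in every library. In the unselected library SAM1, MET6 and CYS3 followed CYS4. There SAM1 was 1.02 times MET6 (interval 0.974 to 1.06) and MET6 was 1.04 times CYS3 (interval 0.994 to 1.08), so neither step in the order went beyond counting error.

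Because the SAM1 and SAM2 ORFs are paralogs, part of their reads could be assigned to either. They are identical at 83.2% of 1149 aligned bases, and 5.36% of the 30-base words of SAM1 also occur in SAM2. No other member shares a 30-base word with another annotated coding sequence, and no member overlaps another annotated coding sequence. The shared words come from 2 stretches of 59 identical bases each, printed here because reads that fall inside them fit both genes. They lie on the plus strand of SAM1 at chrXII:515961-516019 and chrXII:516024-516082, and on the minus strand of SAM2 at chrIV:1453701-1453759 and chrIV:1453638-1453696.
First shared stretch: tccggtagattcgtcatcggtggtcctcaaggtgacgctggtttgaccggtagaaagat
Second shared stretch: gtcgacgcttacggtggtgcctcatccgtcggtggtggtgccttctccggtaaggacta

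Setting the poly(A)-selected beside the unselected library asks how far capture on oligo(dT) changes the relative levels of these mRNAs. Below, a ratio is a log2 ratio of RPKM plus 0.5, from which the median over 5199 ORFs, those whose mean RPKM reached 1, was subtracted. All 10 members were among those ORFs. The 5 genes after sulfide all had ratios below 0, and so did both subunits of sulfite reductase, while MET3, MET14 and MET16 had ratios above 0. At a fold of 1.5, a rule of size, 2 members were higher and 5 lower. Over all ORFs kept the shares were 20.4% higher and 21.3% lower. The median ratio of the members was -0.52, against 0 for all ORFs kept.

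MET6 had the lowest ratio at -1.43 (95% exact binomial interval -1.48 to -1.37), from 631 and 277 RPKM. MET5 followed at -1.39 (interval -1.52 to -1.27) and CYS4 at -1.06 (interval -1.12 to -1.01), so 3 members were at least 2-fold lower and 0 higher. By that fold 6.6% of all ORFs kept were higher and 8.64% lower. MET10 had -0.83 and SAM1 -0.63. SAM2 had -0.41 and CYS3 -0.14, neither of them past 1.5-fold. Without centring the median ORF was 0.24 log2 higher after selection, and on that scale CYS3 was at 0.09, with the opposite sign, and SAM1 at -0.39, short of 1.5-fold.

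At the other end, MET14 had a ratio of 0.88 (interval 0.66 to 1.13), from 73.8 and 161 RPKM, and MET16 had 0.82 (interval 0.40 to 1.30). MET3 had 0.49 (interval 0.23 to 0.77), short of 1.5-fold, and without centring it was past it at 0.73. Without centring 3 members were thus higher and 4 lower, where 31.9% of all ORFs kept were higher and 12.6% lower.

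**Figure D2:**
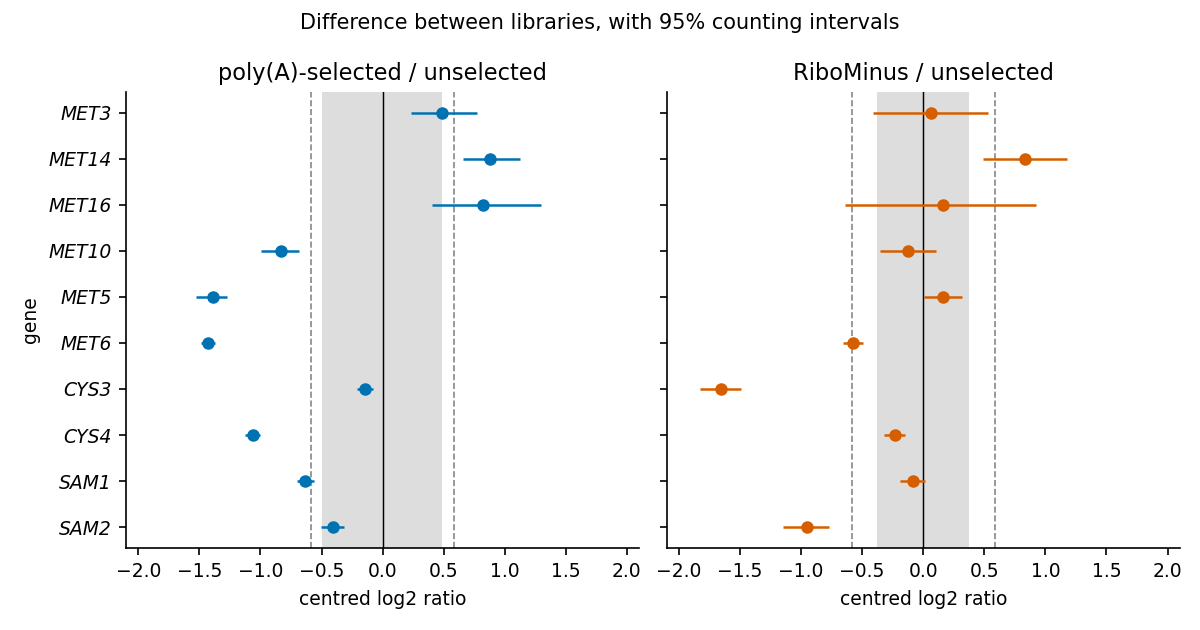
Centred log2 ratio of each gene for poly(A)-selected against unselected (left) and RiboMinus against unselected (right), both of which share the unselected library. Bars are 95% counting intervals, the grey band is the interquartile range of all ORFs kept and dashed lines mark 1.5-fold. MET6, MET5 and CYS4 are lowest on the left, and CYS3 and SAM2 are lowest on the right.

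Coding length moved with these ratios. Across the 5199 ORFs, which are not independent replicates, ratio and coding length had a Spearman's rho of -0.759. MET14 and MET16 have the shortest coding sequences of the members, at 609 and 786 nt, and MET5 and MET10 the longest, at 4329 and 3108 nt. When the running median of ORFs of like length was subtracted, MET10 was at -0.03, MET5 at -0.33, MET14 at 0.24 and MET16 at 0.39, all within 1.5-fold. CYS4 at -0.89, MET6 at -0.83 and SAM1 at -0.72 remained past 1.5-fold lower, and MET3 was at 0.67, past 1.5-fold higher. On that scale 1 member was higher and 3 lower, where 6.92% of all ORFs kept were higher and 9.5% lower. The 5 genes after sulfide all stayed below 0, with SAM2 at -0.50 and CYS3 at -0.19.

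Setting RiboMinus beside the unselected library asks how far probe-based removal of ribosomal RNA changes the relative levels. CYS3 was lower, SAM2 was lower and MET14 was higher, while the other 7 members stayed within 1.5-fold. Of all ORFs kept, 14.6% were higher and 16% lower by this fold. At 2-fold 0 members were higher and CYS3 alone was lower, where 4.85% and 5.73% of all ORFs kept were. CYS3 had a ratio of -1.65 (interval -1.83 to -1.49), from 608 and 203.5 RPKM, which only 1.33% of ORFs kept lay below. SAM2 had -0.95 (interval -1.15 to -0.77), from 327 and 178 RPKM. For MET14 the ratio was 0.83 (interval 0.49 to 1.18), from 73.8 and 139 RPKM. The median ratio of the members was -0.11.

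Among the other 7, MET6 had -0.57 (interval -0.66 to -0.49), just short of 1.5-fold. It was at -0.60 relative to ORFs of like length and at -0.39 relative to ORFs of like GC content. CYS4 had -0.23 (interval -0.32 to -0.15) and SAM1 -0.09 (interval -0.19 to 0.02). The sulfite reductase genes MET10 and MET5 had -0.12 and 0.16, with intervals of -0.36 to 0.10 and 0.01 to 0.32. MET3 had 0.07 and MET16 0.16, but they rest on 52 and 20 RiboMinus reads and their intervals reach from -0.41 to 0.53 and from -0.64 to 0.93. At this depth a difference of 1.5-fold would not be detectable for MET16.

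Coding GC content moved with the RiboMinus ratio, with a Spearman's rho of -0.379 across the ORFs kept. CYS3 at 48.7% and SAM1 at 47.4% have the most GC of the members, above 97.8% and 95.9% of listed ORFs, and the other 8 lie between 38.7% and 41.9%. The ratio was -1.65 for CYS3 and -0.09 for SAM1, and -0.95 for SAM2 with its 41.9% GC. The part of GC content in these ratios, like that of coding length in those after poly(A) selection, was not tested. When the running median of ORFs of like GC content was subtracted, CYS3 was at -1.15, SAM2 at -0.76 and SAM1 at 0.41.

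**Figure D3:**
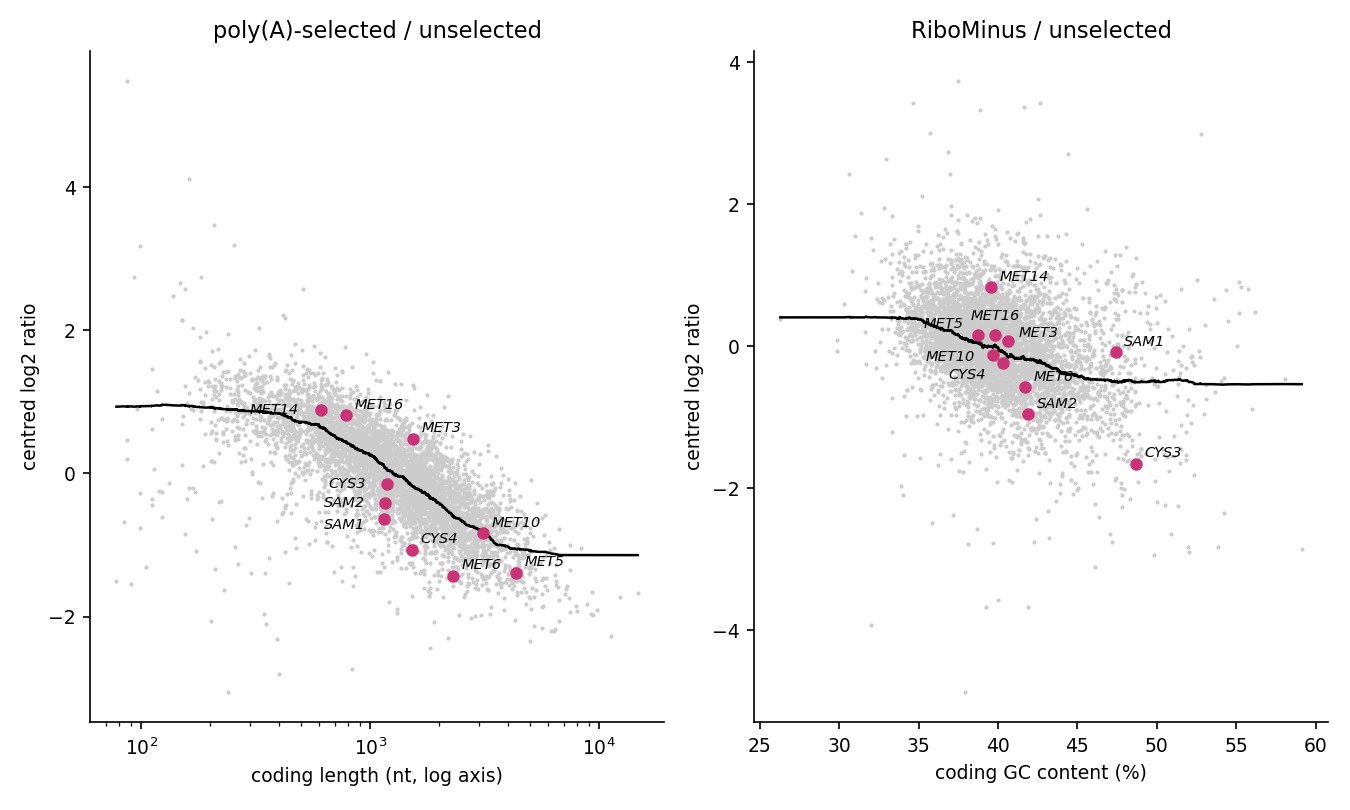
Centred log2 ratios of all ORFs kept (grey) and of the 10 genes (coloured), for poly(A)-selected against unselected by coding length on a log axis (left) and RiboMinus against unselected by coding GC content (right). Black lines are running medians over 10% of the ORFs. MET10 lies near the line on the left at -0.83, and CYS3 lies far below the line on the right at -1.65.

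The poly(A)-selected and RiboMinus libraries were also set against each other, which adds no library. CYS3 had the highest ratio of the members, at 1.56 (interval 1.40 to 1.73), from 649 and 203.5 RPKM. MET5 had the lowest, at -1.49 (interval -1.67 to -1.34), from 30.3 and 79.8 RPKM. MET16 at 0.71 and SAM2 at 0.60 were also higher, and MET6 at -0.80, CYS4 at -0.78 and MET10 at -0.66 were lower. Thus 3 members were higher and 4 lower, where 25.8% of all ORFs kept were higher and 24% lower. At 2-fold CYS3 was higher and MET5 lower, where 14.1% and 10.8% of all ORFs kept were. Neither held at 2-fold under both trends: CYS3 was at 0.83 relative to ORFs of like GC content, and MET5 at -0.38 relative to ORFs of like length. On the length scale MET6 at -0.25, MET16 at 0.21 and SAM2 at 0.41 were also within 1.5-fold, and MET10 changed sign to 0.20. CYS3 at 1.39 and CYS4 at -0.60 remained past 1.5-fold there, and MET3 at 0.65 and SAM1 at -0.69 came past it. With the GC trend removed SAM2 at 0.37 was within 1.5-fold and SAM1 was at -1.20.

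Ratios between partner genes within 1 library do not depend on centring. Their changes between libraries were not adjusted for coding length or GC content. The level of MET10 was 0.758 times that of MET5 in the unselected library (95% interval 0.691 to 0.831), 1.12 times in the poly(A)-selected library (1.01 to 1.24) and 0.622 times in the RiboMinus library (0.524 to 0.735). For CYS3 against CYS4, the enzymes that act in series from homocysteine to cysteine, the ratio was 0.783 (0.749 to 0.819), 1.48 (1.42 to 1.54) and 0.292 (0.258 to 0.331). In both pairs the order of the genes turned over after poly(A) selection. The ratio of MET10 to MET5 was 1.47 times its unselected value after poly(A) selection (exact conditional 95% interval 1.28 to 1.69) and 0.820 times in the RiboMinus library (0.675 to 0.994). That of CYS3 to CYS4 was 1.89 times (1.78 to 2.01) and 0.373 times (0.327 to 0.426). MET10 and MET5 differ in coding length, at 3108 and 4329 nt. Relative to ORFs of like length, their log2 ratios after poly(A) selection were -0.03 and -0.33, in place of -0.83 and -1.39.

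SAM1 was 1.96 times SAM2 in the unselected library (1.85 to 2.08), 1.68 times after poly(A) selection (1.59 to 1.77) and 3.58 times in the RiboMinus library (3.12 to 4.11). Both coding sequences have nearly the same length, 1149 and 1155 nt. MET3 was 0.316 times MET14 in the unselected library (0.255 to 0.391), 0.241 times after poly(A) selection (0.212 to 0.274) and 0.185 times in the RiboMinus library (0.131 to 0.260). Set against the unselected library, SAM1 to SAM2 was 0.856 times as high after poly(A) selection (0.790 to 0.927) and 1.82 times in the RiboMinus library (1.57 to 2.12). MET3 to MET14 was 0.764 times (0.594 to 0.983) and 0.587 times (0.388 to 0.880). Between the poly(A)-selected and RiboMinus libraries the change of MET3 to MET14, 1.30 times (0.905 to 1.89), did not go beyond counting error. The coding sequences of MET3 and MET14 differ in length, at 1536 and 609 nt. Relative to ORFs of like length, MET3 had a log2 ratio of 0.67 and MET14 of 0.24 after poly(A) selection. On that scale MET3 rose more than MET14, so the direction of their change after poly(A) selection is reversed.

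**Figure D4:**
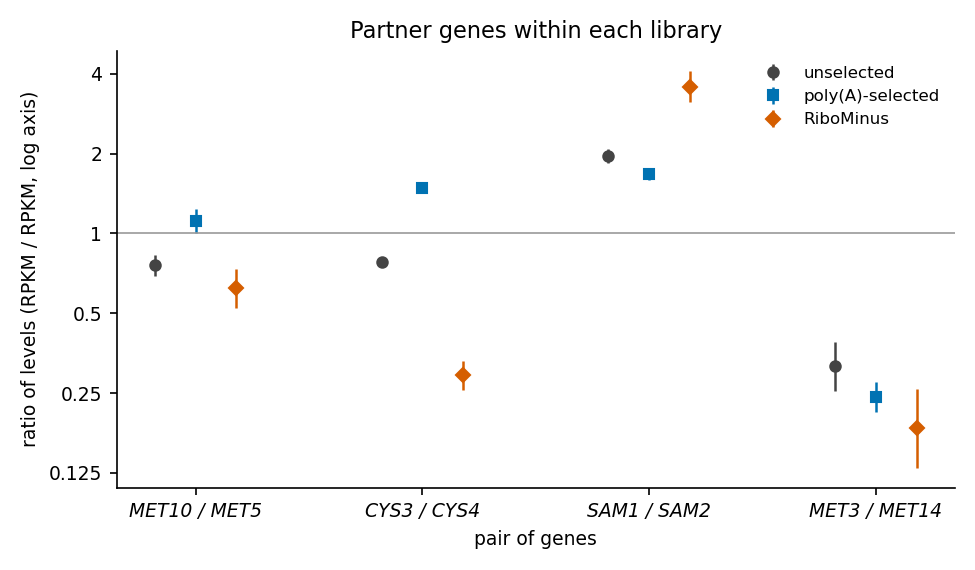
Ratio of the levels of partner genes within each library, on a log axis, with 95% counting intervals; the grey line marks equal levels. CYS3 over CYS4 ranges from 0.292 in the RiboMinus library to 1.48 in the poly(A)-selected library, and SAM1 is above SAM2 in all 3.

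Most members also have few codons for the sulfur amino acids, a feature of the coding sequences that no library bears on. All 10 have a smaller share of methionine and cysteine codons, not counting the start codon, than the median listed ORF, which has 3.07%. CYS3 has 2 such codons among 393, or 0.509%, and MET10 has 6 among 1034, or 0.580%, which places them above only 1.98% and 2.25% of listed ORFs. MET3 has 5 among 510 and CYS4 has 6 among 506. SAM1 and SAM2 have 11 each, at 2.89% and 2.87%, and lie near the middle of all ORFs. The median was 1.48% over the members and 3.10% over the 39 other sulfur genes, 19 of which lie below the median of all ORFs. Of these other genes, HOM6 at 0.279% and MET17 at 0.451% lie below every member.

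**Figure D5:**
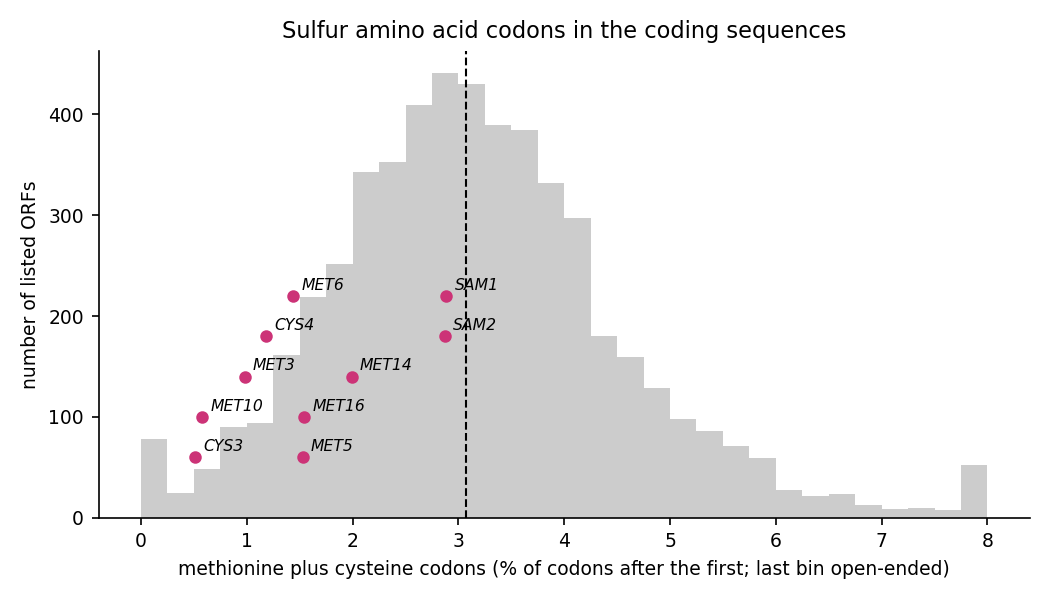
Share of methionine plus cysteine codons, in percent of the codons after the first, for all listed ORFs (grey histogram of counts) and for the 10 genes (coloured points, whose height only separates the names). The dashed line is the median of all ORFs, 3.07%, and every gene named lies to the left of it.

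A list of 40 other genes of sulfur metabolism was read beside the members, of which 39 are listed and all of those were kept. SAM4 was not analysed here. In the poly(A)-selected against the unselected library 6 of the 39 were at least 1.5-fold higher and 4 lower, where 20.4% and 21.3% of all ORFs kept were. Their median ratio was 0.13, and the 6 include MET17 with its 5 and 19 reads. In the RiboMinus library 8 were higher and 5 lower, where 14.6% and 16% of all ORFs kept were, with a median of 0.15. The 8 include MET17, with 5 unselected and 3 RiboMinus reads, and SUL1, with 4 and 7. The 5 include STR3 with 11 RiboMinus reads, whose interval of -1.80 to 0.23 includes 0. The 3 with the highest mean RPKM over the libraries were the adenosine kinase gene ADO1, the S-adenosylhomocysteine hydrolase gene SAH1 and the homoserine dehydrogenase gene HOM6.

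SAH1, which clears the product of SAM-dependent methylation, was at 1120 RPKM in the unselected library, 691 RPKM after poly(A) selection and 615 RPKM after RiboMinus, with ratios of -0.93 and -0.94. ADO1, which acts on the adenosine released in that step, was at 656, 966 and 1207 RPKM, with ratios of 0.32 and 0.80. These neighbours in the methyl cycle thus lay on opposite sides of the centre in both comparisons, which share the unselected library. After poly(A) selection ADO1 was at 0.08 relative to ORFs of like length and 0.0005 relative to ORFs of like GC content. SAH1 was at -0.89 and -1.09 on those scales, so the contrast there rests on SAH1. In RiboMinus against unselected ADO1 was at 0.82 and 1.31 on them, and SAH1 at -0.94 and -0.63. HOM6 was at 664, 856 and 903 RPKM, with ratios of 0.13 and 0.37.

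Among the regulators, the short ORFs of the DNA-binding proteins Met31 and Met32 were higher after poly(A) selection. MET31 had a ratio of 1.06 (interval 0.75 to 1.40), from 43.1 and 107 RPKM, and MET32 had 1.15 (interval 0.50 to 1.97), from 8.23 and 22.4 RPKM, the highest of the list. Relative to ORFs of like length they were at 0.36 and 0.47, within 1.5-fold. In the RiboMinus library all 6 regulators were within 1.5-fold of the unselected library, where 14.6% of all ORFs kept were higher and 16% lower. MET32 at 0.58 (interval -0.64 to 1.76) and MET28 at -0.58 (interval -1.63 to 0.32) were just short of that fold. They rest on 10 and 12 RiboMinus reads, so at this depth a difference of 1.5-fold would not be detectable for them. MET28, a cofactor of Met4, had 1.14 when the poly(A)-selected library was set against the RiboMinus library, where it had 12 reads, and 0.45 relative to ORFs of like length.

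The gene of the methylenetetrahydrofolate reductase MET13, which makes the methyl donor used by Met6, had the lowest ratio of the list after poly(A) selection, at -1.72 (interval -2.02 to -1.48), from 41.6 and 14.6 RPKM. It stayed at -1.41 relative to ORFs of like length. Its homolog MET12 had -0.46, and against the RiboMinus library they had -1.08 and -1.06. In the RiboMinus library the serine hydroxymethyltransferase gene SHM2, which feeds the same folate pool, had the lowest ratio of the list, at -1.15, from 832 and 396 RPKM.

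Of the 6 genes of methionine salvage and polyamine synthesis, 2 were higher and 0 lower after poly(A) selection, with a median ratio of 0.50. Of all ORFs kept, 20.4% were higher and 21.3% lower. Relative to ORFs of like length, the lowest of the 6 was at -0.58 and the others ran from 0.09 to 0.34, all within 1.5-fold. In the RiboMinus library 2 were higher and 1 lower, with a median of 0.06, where 14.6% and 16% of all ORFs kept were. Salvage recovers methionine from methylthioadenosine. MRI1 and MDE1, which act in that cycle, had ratios of 1.05 and 1.14 in the RiboMinus library, from 163 and 357 RPKM and from 128 and 300 RPKM. ADI1, another enzyme of the cycle, had 1.05 after poly(A) selection, from 51.9 and 127 RPKM, and 1.46 against the RiboMinus library. Relative to ORFs of like length these were 0.34 and 0.71, and its ratio of RiboMinus against unselected was -0.36. The sulfate permease gene SUL1 had the highest RiboMinus ratio of the list, at 1.51, but rests on 4 unselected and 7 RiboMinus reads, and it had the lowest ratio of poly(A)-selected against RiboMinus, at -1.18, or -0.50 relative to ORFs of like length.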

How the data were processed

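The authors deposited RPKM values, given to 2 decimals, for 5293 ORFs in each of 3 libraries of 1 sample each. The submitters' processing notes name Bowtie2, TopHat2 and sacCer3. What each tool did, its version, how reads were counted and on which annotation is not given in the sources used here. Another 2 columns of RPKM belong to libraries outside the samples described, so their values were left out and only the ORF names beside them were read. All 5293 names were matched to the RefSeq R64 annotation, 203 after a hyphen was restored. RPKM times coding length without the stop codon fell on multiples of 1 step per library, which gave the read totals: 99.9%, 99.1% and 99.9% of values under 100 reads lay within 0.1 read of a whole number. Intervals of a level are exact Poisson, and those of ratios and shares exact binomial (Clopper-Pearson), at 95%. The change of a partner ratio between libraries has the exact conditional interval of an odds ratio of reads. They cover counting error only, because without molecular identifiers reads cannot be taken as separate molecules. A filter on a mean RPKM of 1 or more removed 94 ORFs. The pseudocount of 0.5 understates differences of low ORFs. Ratios were centred on the median ORF (0.24, 0.08 and 0.11 log2 removed). A call is a difference of 1.5-fold. The members, gene lists, motifs and alternatives were chosen with earlier results of these data known. All members are named. Of the other sulfur genes, MET17, the 3 with the highest mean RPKM, the highest and lowest of each comparison and those past 2-fold with at least 20 reads in the better covered library are named. The calculation of ratios and totals was tested on simulated Poisson counts that hold no trend with length or GC. That checks the arithmetic and says nothing about differences between real libraries. Python 3.11.15, pandas 2.3.3, SciPy 1.17.1 and Biopython 1.88 were used.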

Additional observations from a re-analysis of the deposited data

How the results depend on the processing

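No paired analysis was possible because each preparation has 1 library. Of the members' calls, those of MET6 and CYS4 (poly(A)-selected against unselected), of CYS3, SAM2 and MET14 (RiboMinus against unselected) and of CYS3 and CYS4 (poly(A)-selected against RiboMinus) held under all 9 alternatives of scale, filter, pseudocount and trend. Counts changed as follows. At 2-fold, 0 members were higher and 3 lower in poly(A)-selected against unselected, 0 higher and 1 lower in RiboMinus against unselected, and 1 higher and 1 lower in poly(A)-selected against RiboMinus. With the trend with length removed, poly(A)-selected against unselected had 1 higher and 3 lower, where 6.92% and 9.5% of all ORFs kept were. With that trend removed, RiboMinus against unselected had 3 lower in place of 2, where 15.2% of all ORFs kept were lower. For poly(A)-selected against RiboMinus 2 were then higher and 2 lower. With the trend with GC removed, poly(A)-selected against RiboMinus had 2 higher and 5 lower, in place of 3 and 4. Centred on ORFs whose mean RPKM reached 100, 1 was higher and 6 lower in poly(A)-selected against unselected, in place of 2 and 5. On that scale 11.4% of all ORFs kept were higher and 32% lower. Without centring 3 were higher and 4 lower in that comparison, where 31.9% and 12.6% of all ORFs kept were. In poly(A)-selected against RiboMinus 1 was higher and 5 lower with that centring, and 3 higher and 3 lower without centring. Counts of poly(A)-selected against RiboMinus under alternative scales are given without the share over all ORFs kept, which can move with the scale. MET10 in poly(A)-selected against RiboMinus went from -0.66 to 0.20 with the trend with length removed; the fall of ratios with coding length is what that alternative takes out. The median ratio of the members stayed below 0, except for RiboMinus against unselected with the trend with GC removed, where it was 0.0005. Length with the stop codon, or 0.5 added to each RPKM, moved no partner ratio beyond its counting interval. Both alternatives change such a ratio little by construction, so this says little about how firm the ratios are. Partner ratios were not recomputed with the trend with length or GC removed. Depth limits MET16 and MET3 most, with 20 and 52 RiboMinus reads.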
